A study of Arabidopsis thaliana with 28 samples.

Results

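Dark-grown Arabidopsis thaliana seedlings that had received a mock treatment were compared at 24 h and at 12 h after it, across all 18310 genes of the deposited table. The comparison took every gene and the 4 libraries that the labels give for those hours, 2 at 24 h and 2 at 12 h, of 28 libraries in the series. All seedlings were of the Col-0 accession and spent 3 days in darkness in hydroponics before treatment, and their light condition is labelled dark. The mock groups received ethanol, and the groups set beside them received 10 uM abscisic acid (ABA), a hormone of seed dormancy and drought responses. Each group is whole seedlings, with polyA RNA sequenced from 2 libraries at 1, 4, 8, 12, 24, 36 and 60 h after either treatment. Whether both libraries of a group are independent cultures is not labelled, and the p-values and errors measure only the spread between these libraries, which may be technical. The groups lie 12 h apart, so the hour of a daily cycle and the age of the seedling both differ and cannot be told apart here.

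A seedling kept in darkness lives on its seed reserves. Light normally drives the nuclear genes for the photosystems and for carbon fixation, most of whose products are imported into the plastid, and a dark-grown seedling transcribes them at levels that depend on its developmental stage, its sugars and its circadian clock. The clock of Arabidopsis is a set of transcription factors that repress or activate one another, with CCA1 and LHY peaking around dawn and TOC1 and other evening genes peaking around dusk in entrained plants. The labels do not give an hour of day or an entraining regime.

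Between 12 and 24 h the clearest change was a fall of nuclear genes for photosynthesis. In the main fit it stood beside a smaller set of higher genes. Of 18310 genes, 96 (0.524%) passed limma's moderated test at an adjusted p under 0.05, with Benjamini-Hochberg adjustment over all genes. Of these, 71 (0.388%) were lower at 24 h and 25 (0.137%) were higher, and 39 of the lower and 11 of the higher genes changed at least 2-fold. With libraries rescaled by median ratios the split was 53 lower and 30 higher, and with only the 14 mock libraries fitted it was 99 lower and 9 higher. Of the 96 genes, 78 and 59 were still called in those 2 fits. A fit with a block for replicate number reversed the split, with 679 lower and 782 higher. The labels do not mark that number as a shared batch, and this fit is described in the last section. The adjusted p of the called genes lay between 0.0336 and 0.0492, just under the threshold, and leaving out any 1 of the 4 libraries left 0 called genes, with 1350 to 3135 genes at an unadjusted p under 0.05 against 3193 with all 4. All 96 kept their direction in each of those fits. That was fixed in advance, because both 24 h libraries of every called gene lay beyond both 12 h libraries. The median difference of all genes was -0.0005 on the log2(RPKM + 1) scale, on which all differences below are given, as 24 h minus 12 h ± the standard error of the model.

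The 4 libraries held 16.97 to 26.6 M reads in the kept genes, as recovered from the RPKM values. Plastid-encoded genes differed more between the replicates than between the hours: they took 0.132% and 0.277% of reads in replicate 1 at 12 and 24 h, and 1.03% and 1.04% in replicate 2. Differences between replicates at 12 h correlated across genes with those at 4 h and 8 h in mock seedlings (Pearson's r 0.64 and 0.7) but less with those at 36 h and 60 h (0.09 and 0.14), whereas those at 24 h correlated with 36 h and 60 h (0.72 and 0.67) more than with 4 h and 8 h (0.41 and 0.45). The correlation between 12 h and 24 h was 0.28. Those of mock 1 h with 12 h and with 24 h were 0.34 and 0.29, so the hours did not split simply into early and late. Replicate structure thus differed between both groups of the comparison, and its part in the results was not tested. Markers were used to check the whole-seedling label, and 1 gene is quoted for each tissue that was read. CASP1 of endodermis (102 to 243 RPKM) and CESA4 of xylem (10.8 to 14.4 RPKM) were read in all 4 libraries. So were TMM of guard cell lineage (8.62 to 11 RPKM) and KNAT1 of shoot meristem (38.9 to 80.2 RPKM). Markers of root hairs stayed at or under 5.72 RPKM, and 2 of the 3 listed shoot meristem markers were in the table. Of 22 marker genes of these and plastid-rich cells, 1 was called, RCA of the plastid list, against 0.524% of all genes.

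The 22 listed photosynthesis genes all had negative differences, and 6 of them were called lower against 0.388% of all genes, while 0 were called higher. The 6 were LHCB2.1, LHCB2.2, LHCB3 and LHCB6 (antenna proteins of photosystem II), RBCS1B (a small subunit of Rubisco) and RCA (Rubisco activase). The list's median difference was -1.16, and 16 of 22 had an unadjusted p under 0.05 in that direction, against 9.49% of all genes. In 20 of 22 both 24 h libraries lay below both 12 h libraries, an arrangement that 24.2% of all genes showed. Together the 22 genes took 4.24% and 3.98% of reads at 12 h and 2.14% and 2.57% at 24 h, with exact 95% binomial intervals of at most 0.0085 points on either side, which cover counting error only. In bulk seedlings, fewer cells of a type and less RNA per cell cannot be told apart.

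LHCB3 (AT5G54270, chr5:22038165-22039568) stood at 1445 and 908 RPKM at 12 h in replicates 1 and 2, and at 227 and 392 RPKM at 24 h. The groups did not overlap, and its difference was -1.94 ± 0.37 (limma, adjusted p = 0.0376), leaving 26.3% of the 12 h mean. LHCB6 (AT1G15820, chr1:5446462-5447880), a minor antenna protein, went from 858 and 644 RPKM to 183 and 261 RPKM, a difference of -1.76 ± 0.31 (adjusted p = 0.0336). The near-identical pair LHCB2.1 (AT2G05100) and LHCB2.2 (AT2G05070) stood at 403 and 247 RPKM and at 396 and 230 RPKM at 12 h. At 24 h LHCB2.1 was at 62.6 and 110 RPKM and LHCB2.2 at 81.6 and 83.4 RPKM, both well below their 12 h libraries. Reads of such paralogs may be split between copies in a way that the sources do not state, so their separate values are uncertain. Replicate 1 was the higher library of LHCB3, LHCB6 and LHCB2.1 at 12 h and the lower at 24 h.

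RBCS1B (AT5G38430, chr5:15383167-15385320) had the largest called fall, from 237 and 213 RPKM to 54.4 and 53.9 RPKM, a difference of -2.03 ± 0.38 (limma, adjusted p = 0.0376). The other small-subunit genes of the list did not pass: RBCS1A stood at 5897 and 7080 RPKM at 12 h and 5923 and 5000 RPKM at 24 h, with a difference of -0.25 ± 0.27. RCA (AT2G39730, chr2:16570746-16573692), which keeps Rubisco active, went from 820 and 746 RPKM to 295 and 364 RPKM, leaving 42.0% of the 12 h mean. The largest difference of the list belonged to LHCB1.1, another photosystem II antenna gene, and was not called. It stood at 930 and 445 RPKM at 12 h and at 82.1 and 73.9 RPKM at 24 h, a difference of -3.03 ± 0.86 (limma, adjusted p = 0.111). Its paralog LHCB1.3, the most abundant antenna gene, stood at 8935 and 10134 RPKM and then at 4805 and 7211 RPKM (-0.69 ± 0.37, adjusted p = 0.348). LHCB4.1 moved little, from 1046 and 1175 RPKM to 733 and 1139 RPKM, and its libraries overlapped. Antenna and small-subunit genes thus spread from -3.03 to -0.25 within a single list. The uncertainty about reads of paralogs applies to the LHCB1 and small-subunit copies as well.

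**Figure D1:**
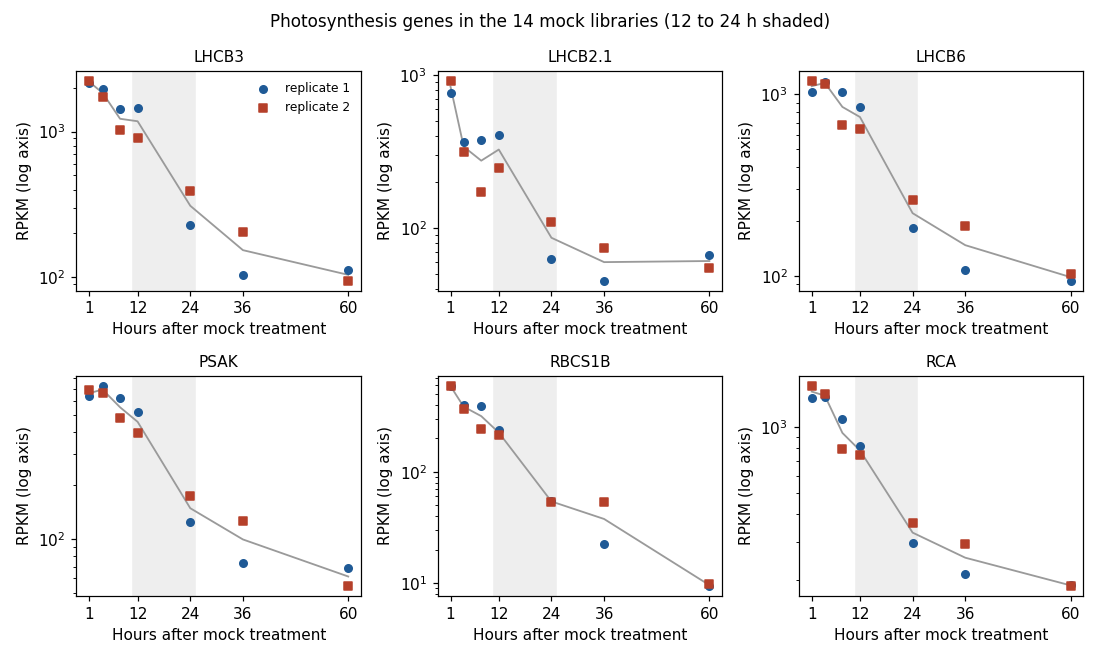
RPKM on a log axis against hours after mock treatment for LHCB3, LHCB2.1, LHCB6, PSAK, RBCS1B and RCA, all called lower, with 1 point per library and a grey line through the mean of the 2 libraries; the 12 to 24 h interval is shaded. All 6 genes are lower in both 24 h libraries than in both 12 h libraries, as LHCB3 is at 227 and 392 RPKM against 1445 and 908 RPKM.

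The interval lies within a longer decline. LHCB3 stood at 2148 and 2231 RPKM at 1 h and at 113 and 94.8 RPKM at 60 h in mock seedlings. LHCB2.1 stood at 761 and 914 RPKM at 1 h, at 364 and 315 RPKM at 4 h and still at 403 and 247 RPKM at 12 h, before the lower values of 24 h. The share of reads of the 22 photosynthesis genes lay between 3.97% and 5.0% in the 8 mock libraries up to 12 h and was 1.37% and 1.89% at 36 h and 0.996% and 1.07% at 60 h. Across the later day from 36 to 60 h, which shares no library with the 12 to 24 h interval, 1 of the 22 genes was called lower (RBCS1B, -1.75, adjusted p = 0.028), against 0.912% of all genes, and the list's median difference was -0.44.

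Promoters of 3 of the falling genes and of 1 rising gene are printed to show what a motif match looks like. They were chosen because they hold an I-box, after the matches were seen, and those of LHCB3, LHCB2.2 and RBCS1B hold none of the motifs searched. Each is the 250 bases before the annotated start on build TAIR10.1 (RefSeq), 5' to 3' on the strand of the gene, with matches in capitals to the I-box GATAAG, the G-box CACGTG or the ABA-response element core ACGTGNC, searched on both strands. The last 2 motifs can overlap, as they do in LHCB6. The windows are chr1:5447881-5448130 (minus strand) for LHCB6, chr1:10721933-10722182 (plus strand) for PSAK, chr2:16573693-16573942 (minus strand) for RCA and chr5:17626488-17626737 (minus strand) for HSFA6A. In the LHCB6 window 2 other annotated genes overlap, and in the other windows 0.
LHCB6: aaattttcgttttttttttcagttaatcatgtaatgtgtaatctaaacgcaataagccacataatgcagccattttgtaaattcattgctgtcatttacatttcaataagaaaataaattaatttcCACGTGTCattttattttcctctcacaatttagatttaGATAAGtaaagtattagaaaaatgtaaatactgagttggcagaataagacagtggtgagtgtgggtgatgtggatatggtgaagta
PSAK: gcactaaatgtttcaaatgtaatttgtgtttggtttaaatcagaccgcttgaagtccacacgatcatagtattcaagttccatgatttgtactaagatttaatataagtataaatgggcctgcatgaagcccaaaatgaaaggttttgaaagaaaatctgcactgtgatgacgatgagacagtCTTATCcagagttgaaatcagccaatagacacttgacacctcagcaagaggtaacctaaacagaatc
RCA: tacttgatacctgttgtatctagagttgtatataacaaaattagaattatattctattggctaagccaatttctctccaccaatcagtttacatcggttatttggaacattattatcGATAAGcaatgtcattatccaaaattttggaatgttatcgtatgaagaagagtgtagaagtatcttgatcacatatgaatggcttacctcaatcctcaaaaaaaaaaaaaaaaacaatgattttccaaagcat
HSFA6A: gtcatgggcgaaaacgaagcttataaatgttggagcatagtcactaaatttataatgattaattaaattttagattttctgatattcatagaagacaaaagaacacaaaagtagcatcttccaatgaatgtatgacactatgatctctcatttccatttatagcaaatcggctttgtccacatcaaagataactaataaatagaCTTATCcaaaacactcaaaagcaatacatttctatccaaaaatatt
Each window holds 1 I-box, and LHCB6 also holds a G-box that runs into the ABA-response core. Over the 22 photosynthesis genes, 8 promoters (36.4%) held an I-box against 12.7% of 18220 promoters of the table, 4 held a G-box against 7.8% and 6 (27.3%) held the ABA-response core against 10.0%. Over the 71 lower genes the shares were 12.7%, 9.86% and 11.3%, close to those of all promoters. Of the 25 higher genes, 6 held an I-box, 3 a G-box and 4 the ABA-response core. A match describes letters in the window and not a bound site.

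Beyond the antenna and Rubisco genes, the lower genes continued into the photosystems, the Calvin cycle and plastid metabolism. PSAK (AT1G30380, chr1:10722183-10723247) and PSAO, subunits of photosystem I, were at 516 and 396 RPKM and at 920 and 586 RPKM at 12 h. At 24 h PSAK was at 124 and 174 RPKM (-1.62 ± 0.27, limma, adjusted p = 0.0336) and PSAO at 238 and 299 RPKM (-1.46 ± 0.29, adjusted p = 0.0399). GS2, the plastid glutamine synthetase that reassimilates ammonium, had the smallest p of the lower genes and went from 527 and 483 RPKM to 200 and 261 RPKM (-1.14 ± 0.19, adjusted p = 0.0336). The phosphoglycerate kinase family gene AT1G56190 and LACS9, a long-chain acyl-CoA synthetase, had differences of -0.82 ± 0.14 and -0.80 ± 0.14. Together with GS2, PSAK and NFC5 they made up the 5 smallest p of the lower genes. CDSP32, a plastid thioredoxin-like protein, fell from 12.0 and 11.8 RPKM to 2.57 and 3.43 RPKM (-1.70 ± 0.30, adjusted p = 0.0336).

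Other called genes, named after their values were seen, were TRXF1 (-1.42) and TRXF2 (-1.20), the f-type thioredoxins that activate Calvin cycle enzymes, SBPASE (-0.83) and GAPB (-1.01) of that cycle, and PSBQA (-1.15) of the oxygen-evolving complex. Of the 71 lower genes, 52 (73.2%) have an annotation that names the chloroplast, plastid, thylakoid, a photosystem, photosynthesis or light harvesting, against 14.2% of all genes. That grouping was also made after the values were seen and carries no test. Also among the 12 largest falls were XTH7, a xyloglucan-modifying wall enzyme, from 24.7 and 16.2 RPKM to 5.89 and 3.79 RPKM (-1.87 ± 0.39, limma, adjusted p = 0.0448), and GH9B15, a glycosyl hydrolase, from 9.64 and 13.2 RPKM to 3.18 and 3.82 RPKM (-1.45 ± 0.29, adjusted p = 0.0399). AT1G21500 (-1.63 ± 0.28) and AT5G27290 (-1.43 ± 0.27), annotated as an uncharacterized and as a stress regulated protein, completed the 12 largest falls. NFC5, a chromatin assembly factor group protein, was low throughout and went from 2.36 and 2.18 RPKM to 1.04 and 1.02 RPKM (-0.69 ± 0.11, adjusted p = 0.0336).

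Chlorophyll synthesis pointed the same way. All 13 listed genes had negative differences with a median of -0.76, and 9 had an unadjusted p under 0.05, against 9.49% of all genes on the lower side. Of the listed genes, only PORC, a light-dependent protochlorophyllide oxidoreductase, was called, 1 of 13 against 0.388% of all genes. The list did not hold every gene of the pathway. Outside it, GSA2 (-1.06), GSA1 (-0.67), HEMC (-0.80) and CHLI2 (-1.04), named after their values were seen, were also called lower. PORC (AT1G03630, chr1:907523-909650) went from 48.8 and 50.1 RPKM to 15.8 and 21.4 RPKM, a difference of -1.38 ± 0.24 (limma, adjusted p = 0.0336). PORA and PORB, the forms that etiolated seedlings accumulate, stood at 736 and 731 RPKM and at 1293 and 1440 RPKM at 12 h. At 24 h they stood at 469 and 487 RPKM (-0.62 ± 0.23, adjusted p = 0.192) and at 823 and 771 RPKM (-0.78 ± 0.21, adjusted p = 0.0905), lower in both libraries without passing the test. From 36 to 60 h all 3 were called, with PORA at -2.0 (limma, adjusted p = 0.00061) and PORB at -1.56 (adjusted p = 0.00127). CHLH, the large subunit of magnesium chelatase, stood at 181 and 189 RPKM and then at 75.8 and 104 RPKM (-1.05 ± 0.28, adjusted p = 0.0961).

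The 25 higher genes were fewer, and at 12 h less abundant, with a median of 14.6 RPKM against 26.7 RPKM for the lower genes. Choosing genes by their change favours that order at 12 h, so these levels carry no test. HSFA6A (AT5G43840, chr5:17625353-17626487), a heat shock transcription factor, had the smallest p and rose from 0.847 and 1.02 RPKM to 4.36 and 4.96 RPKM, a difference of 1.55 ± 0.25 (limma, adjusted p = 0.0336). AT3G16120, a dynein light chain family gene, had the largest increase, from 2.1 and 2.75 RPKM to 6.7 and 12.4 RPKM (1.57 ± 0.31, adjusted p = 0.0399). AT2G41190, an amino acid transporter family gene, rose from 40.3 and 44.4 RPKM to 96.5 and 126 RPKM (1.36 ± 0.26, adjusted p = 0.0376). In all 3 both 24 h libraries lay above both 12 h libraries. SUS3, a sucrose synthase, went from 7.64 and 7.54 RPKM to 14.2 and 24.4 RPKM (1.19 ± 0.25, adjusted p = 0.0448). SNRK2-8, a protein kinase of the SnRK2 family, went from 10.9 and 13.6 RPKM to 24.4 and 31.0 RPKM (1.11 ± 0.24, adjusted p = 0.0463). AT3G05640, a protein phosphatase 2C, rose by 1.15 ± 0.24, IDD7, an indeterminate-domain factor, by 1.08 ± 0.24, and COR413IM1, a cold-regulated protein of the chloroplast inner envelope, by 0.96 ± 0.19.

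The rest of the 12 largest increases were the PLATZ factor AT1G76590 (1.22), DAA1, a nucleoside triphosphate hydrolase family gene (1.04), and AT2G31945 and AT4G33467, both annotated as uncharacterized (1.35 and 1.33). RD26 and HB-12, a NAC and a homeodomain factor known to respond to ABA and named after their values were seen, rose by 0.74 ± 0.15 and 0.91 ± 0.20. Several of these genes stood far higher in ABA seedlings at both hours. HSFA6A was at 104 and 84.5 RPKM in the ABA libraries at 12 h and at 118 and 94.4 RPKM at 24 h, where its difference was 0.17 (adjusted p = 0.752). The 25 genes took 0.0734% and 0.0771% of reads in the mock libraries at 12 h and 0.138% and 0.147% at 24 h, beside 0.316% and 0.313% at 12 h and 0.39% and 0.371% at 24 h in ABA seedlings. The genes were chosen on the mock libraries, so these shares describe them and carry no test.

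**Figure D2:**
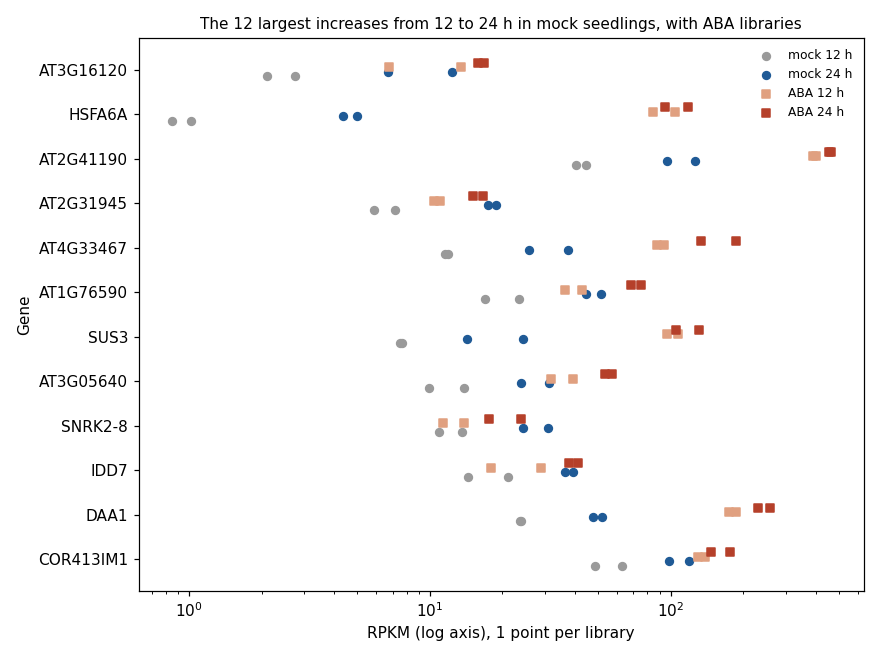
RPKM on a log axis for the 12 largest called increases of mock seedlings, with 1 point per library: circles are mock and squares are ABA libraries, at 12 and 24 h. HSFA6A rises from 0.847 and 1.02 RPKM to 4.36 and 4.96 RPKM in mock libraries while its 4 ABA libraries lie between 84.5 and 118 RPKM.

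The listed ABA response genes stayed short of the test in mock seedlings. Of 17 genes, 0 were called by limma, against 0.524% of all genes. Positive differences were seen in 13 of the 17, and the list's median was 0.52. An unadjusted p under 0.05 on the higher side was seen in 7, against 7.95% of all genes. RAB18, a dehydrin, stood at 97.7 and 83.2 RPKM at 12 h and at 239 and 246 RPKM at 24 h, with no overlap (1.42 ± 0.42, limma, adjusted p = 0.117). RD29B, another desiccation-responsive gene, stood at 42.2 and 29.4 RPKM and then at 98.5 and 71.1 RPKM (1.22 ± 0.44, adjusted p = 0.171). ABI1 and ABI2, phosphatases that damp ABA signalling, had differences of 0.66 ± 0.17 (adjusted p = 0.0832) and 0.72 ± 0.17 (adjusted p = 0.0648). The 17 genes took 0.0833% and 0.0715% of reads at 12 h and 0.135% and 0.114% at 24 h in mock seedlings, against 1.67% and 1.22% at 12 h in ABA seedlings.

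No clock gene passed the test in the main fit, a result that depended on the processing, as described in the last section. Of 23 clock core and 16 clock output genes, limma called 0 in either direction, against 0.524% of all genes. At so low a share, 0 calls in 39 genes say nothing particular about the clock. Of the 39, 13 had an unadjusted p under 0.05 on the higher side and 3 on the lower side. The shares of all genes were 7.95% and 9.49%, and each list had a median difference of 0.34. In 21 of 39 both 24 h libraries lay above both 12 h libraries, an arrangement that 22.3% of all genes showed. The evening repressor TOC1 (AT5G61380) stood at 32.7 and 58.7 RPKM at 12 h and at 77.6 and 94.2 RPKM at 24 h (0.95 ± 0.35, limma, adjusted p = 0.183). PRR7, a daytime pseudo-response regulator, stood at 20.8 and 24.0 RPKM and then at 37.0 and 57.2 RPKM (1.01 ± 0.30, adjusted p = 0.117). COR28, a clock-controlled cold-regulated gene, came closest to the threshold, at 6.89 and 7.83 RPKM and then at 13.8 RPKM in both libraries (0.83 ± 0.19, adjusted p = 0.0635). The evening-complex genes LUX (0.84 ± 0.32) and ELF3 (0.67 ± 0.27) and GI (0.70 ± 0.33) also had positive differences, none past the test.

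Of the 23 core genes, 16 had positive and 7 had negative differences, and the morning factors LHY and CCA1 were among the 7. Other morning genes of the list are not quoted. LHY stood at 40.0 and 34.6 RPKM at 12 h and at 21.1 and 14.9 RPKM at 24 h (-1.03 ± 0.49, limma, adjusted p = 0.291). CCA1 stood at 23.2 and 23.8 RPKM and then at 16.1 and 21.0 RPKM (-0.34 ± 0.25, adjusted p = 0.508). COL2, a CONSTANS-like gene, stood at 12.9 and 11 RPKM and then at 5.71 and 4.01 RPKM (-1.15 ± 0.42, adjusted p = 0.180). At 36 h, a whole day after 12 h, TOC1 was at 95.2 and 105 RPKM and PRR7 at 56.6 and 57.6 RPKM. COR28 was then at 19.5 and 14.3 RPKM and LHY at 11.4 and 11.4 RPKM. These values describe chosen genes, and the parts of clock phase and age were not tested. From 36 to 60 h, again a whole day apart, 0 of the 39 clock genes were called by limma and the median difference was 0.15. Of all genes, 0.726% were called higher and 0.912% lower over that day.

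**Figure D3:**
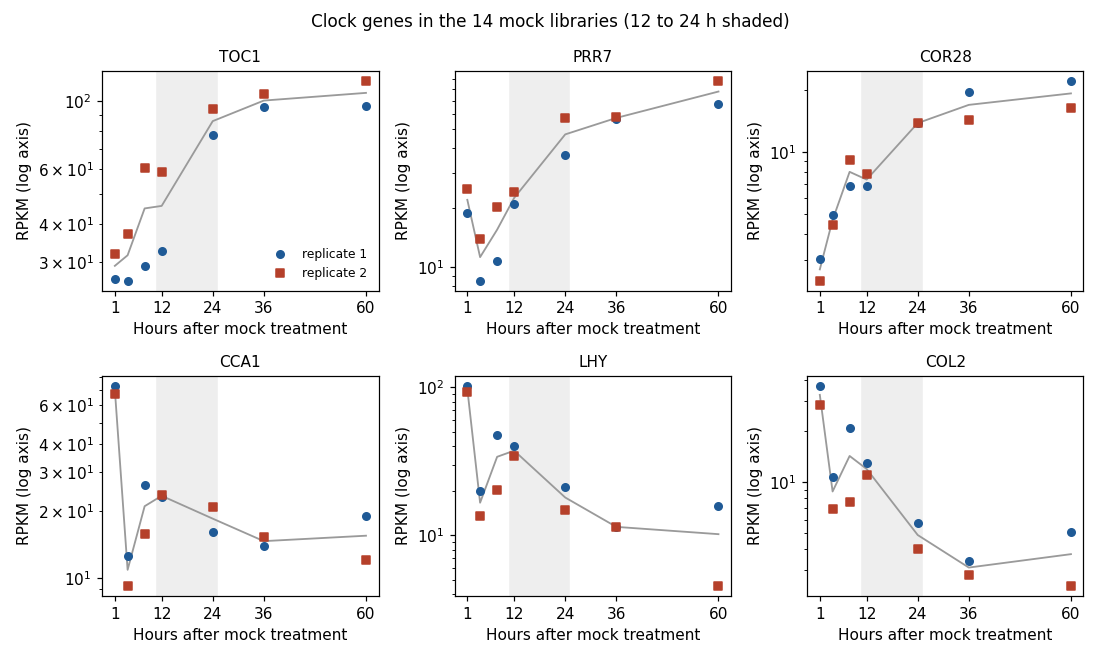
RPKM on a log axis against hours after mock treatment for 3 clock genes with positive and 3 with negative differences from 12 to 24 h (shaded), with 1 point per library and a grey line through the mean of the 2 libraries. TOC1, PRR7 and COR28 are higher in both 24 h libraries than in both 12 h libraries and stay high at 36 and 60 h, and LHY and COL2 stay low.

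**Figure D4:**
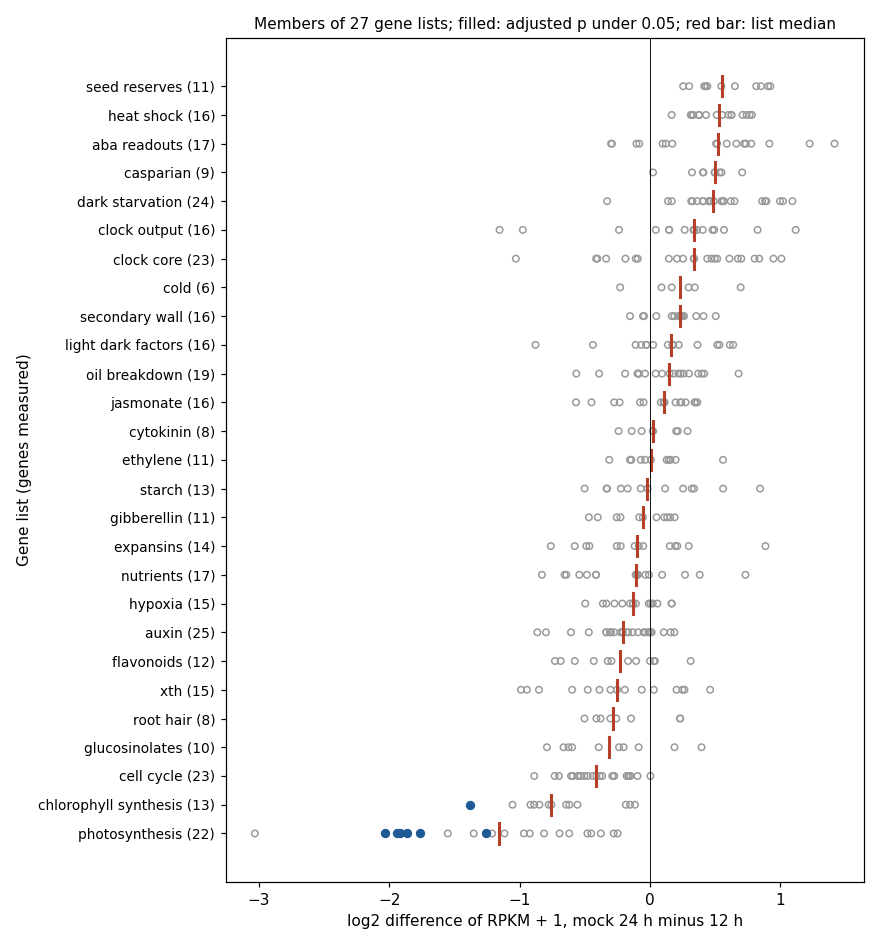
Differences of log2(RPKM + 1), mock 24 h minus 12 h, for the measured members of 27 gene lists, ordered by list median (red bars); filled points passed the test and open points did not. Only photosynthesis (6 of 22) and chlorophyll synthesis (1 of 13) hold filled points.

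Outside photosynthesis and chlorophyll synthesis, 0 members of the other 25 of 27 lists were called by limma, against 0.524% of all genes. The medians of those lists lay between -0.41 and 0.55. The cell cycle list came nearest on the lower side: 22 of 23 had negative differences, with 10 at an unadjusted p under 0.05, against 9.49% of all genes. It did not hold POLA3 (-0.89 ± 0.18) and TSK (-0.48 ± 0.09), genes linked to DNA replication. Both were called lower (limma, adjusted p = 0.0403 and 0.0376) and are named after their values were seen. MCM7, a subunit of the replicative helicase, stood at 6.59 and 6.68 RPKM and then at 3.7 and 3.51 RPKM (-0.73 ± 0.20, limma, adjusted p = 0.102). TSO2, which makes deoxyribonucleotides, stood at 30.1 and 29.9 RPKM and then at 18.1 and 20.8 RPKM (-0.60 ± 0.16, adjusted p = 0.0869). MCM7 and TSO2 were lower in both 24 h libraries without passing the test.

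Darkness-induced and starvation genes lay on the higher side, with 23 of 24 positive differences, a median of 0.48 and 6 at an unadjusted p under 0.05, against 7.95% of all genes. DIN2, a beta-glucosidase induced by darkness and sugar starvation, stood at 211 and 254 RPKM and then at 509 and 481 RPKM (1.09 ± 0.34, limma, adjusted p = 0.128). Heat shock genes had 16 of 16 positive differences, a median of 0.53 and 5 at an unadjusted p under 0.05. HSP70-4, a chaperone of the list, stood at 26.8 and 32.4 RPKM and then at 44.5 and 56.0 RPKM (0.74 ± 0.25, adjusted p = 0.154). Casparian strip genes, the endodermal barrier set, had 9 of 9 positive differences, but replicate 1 exceeded replicate 2 at each hour for CASP1, at 154 and 102 RPKM and then at 243 and 129 RPKM (0.50 ± 0.43, adjusted p = 0.566), so its groups overlapped. Seed storage and oil body genes had 11 of 11 positive differences, a median of 0.55 and 0 genes at an unadjusted p under 0.05. CRC, a cruciferin, stood at 94.7 and 88.2 RPKM and then at 208 and 99.6 RPKM for replicates 1 and 2 (0.65 ± 0.79, adjusted p = 0.704 by limma), so its groups did not overlap but its 24 h libraries lay far apart.

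Seedlings that had received ABA went through the same interval in separate libraries, and most of the falls recurred there. Of the 71 genes lower in mock seedlings, 58 were also called lower from 12 to 24 h with ABA, which is 81.7% of the mock list and 12.1% of the 479 genes called lower with ABA (2.62% of all genes), and 70 of 71 had a negative difference. Of the 25 higher genes, 0 were among the 144 called higher with ABA (0.786% of all genes), although 23 had a positive difference. The photosynthesis list had 15 of 22 genes called lower with ABA and a median of -1.44, and LHCB1.1, not called in mock seedlings, had a difference of -4.85 there (limma, adjusted p = 0.00425). Across 18310 genes the mock and ABA differences correlated with Pearson's r of 0.77 and Spearman's rho of 0.77, as a description of genes that are not independent replicates. The comparisons share no library, but replicates with the same number share structure at each hour (r 0.72 at 12 h and 0.74 at 24 h) and the model pools their spread. From 36 to 60 h in mock seedlings, 15 of the 71 lower genes were called lower and 1 of the 25 higher genes was called higher, against 0.912% and 0.726% of all genes.

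**Figure D5:**
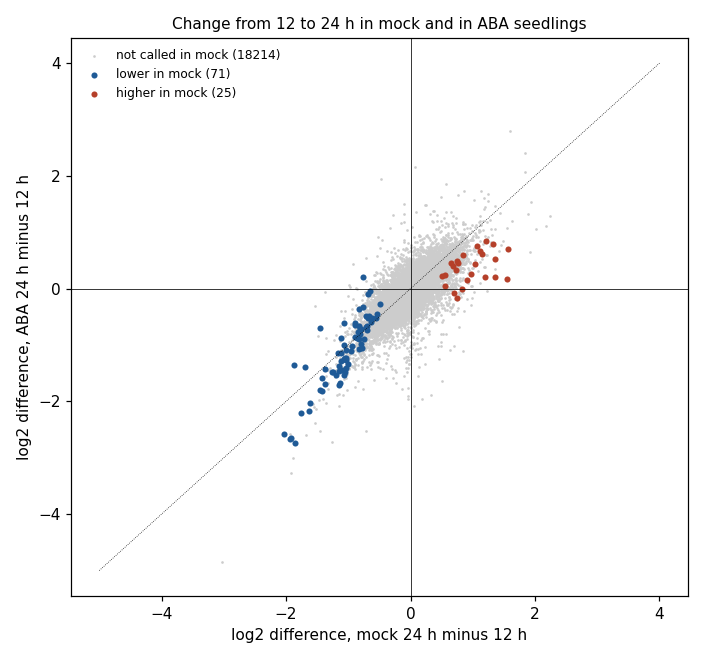
Difference of log2(RPKM + 1) from 12 to 24 h in mock seedlings (horizontal axis) and in ABA seedlings (vertical axis) for 18310 genes, with genes called in mock seedlings in colour and equal change as a dotted line. The 71 lower genes lie below 0 on both axes except 1, and 23 of the 25 higher genes lie above 0 on the vertical axis, with a median of 0.4.

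Whether the change over the interval differed between treatments was tested directly. By limma, 10 genes (0.0546%) had a different change, all with a more negative change in ABA seedlings, and 0 of the 96 genes called in mock seedlings was among them. These 10 were at or under 1.7 RPKM in all 4 mock libraries and fell in ABA seedlings. Genes that low in mock seedlings had little room to fall there, so the shared direction says nothing beyond their fall with ABA. The 5 largest were AT5G13900, AT1G56320, ABCG6, AT3G50400 and EDA4. AT1G56320, annotated as uncharacterized, stood at or under 0.207 RPKM in mock libraries and went from 10.9 and 8.26 RPKM to 1.91 and 1.48 RPKM with ABA (-1.93 ± 0.26, adjusted p = 0.00718). ABCG6, an ABC transporter, stood at or under 0.243 RPKM in mock libraries and went from 34.4 and 27.4 RPKM to 7.2 and 7.83 RPKM with ABA (-1.86 ± 0.31, adjusted p = 0.0329). With 0.1 added before the logarithm in place of 1, limma called 0 genes, with 355 at an unadjusted p under 0.05, so the 10 calls depend on how low values are scaled. All 22 photosynthesis genes had a more negative difference with ABA (median of -0.42), and none of the 22 passed.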

How the data were processed

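PolyA RNA of whole seedlings was sequenced from a stranded kit. The deposited table gives RPKM, reads scaled by gene length and by library size, which the authors made and, per its name, filtered on low counts; HTSeq 0.5.4, edgeR 3.6.2 and build TAIR10 are named in the submitters' processing notes, while the aligner and the use of strand are not given in the sources used here. Overlapping, antisense and near-identical genes are therefore uncertain. The authors' deposited log2 fold changes of ABA against mock, and the authors' deposited adjusted p-values (FDR) beside them, were not used. Per the values, 100.0% of 512680 RPKM values were whole reads within 0.01. These reads, 16.27 to 26.6 M per library, gave depth and read shares, and entered the simulation and an added fit with read-based weights (voom). The main fit did not use them.

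Groups came from the labels. Log2(RPKM + 1) was fitted across all genes with limma 3.58.1 in R 4.3.3, with 1 mean for each of 14 groups in 28 libraries, an intensity trend and two-sided tests (residual df 14, rising to 17.7 after moderation), and p-values were adjusted by Benjamini-Hochberg over 18310 genes. Adding 1 understates changes of low genes. The median standard error of a difference was 0.19. The fit was also run on simulated reads with a fixed spread and independent libraries. That simulation left out the replicate structure of these data, so it does not bear on it. Tables and figures used Python 3.11.15 with pandas 2.3.3 and matplotlib 3.10.9. Names and positions are from RefSeq (TAIR10.1), which matched 18221 genes.

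The members and the 27 gene lists and 6 marker lists were chosen with earlier results of these data known. Genes were named by rule: the 12 largest changes each way among called genes whose libraries do not overlap, the 5 smallest p each way, the 5 largest differences between ABA and mock intervals, and list members. Alternatives changed the pseudocount, a filter, the scaling, the libraries fitted and a block for replicate number, and read-based weights (voom) were added after seeing the data.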

Additional observations from a re-analysis of the deposited data

Results flagged for a closer look

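The change from 12 to 24 h differed between ABA and mock seedlings by limma's test of the difference for 10 genes, each more negative with ABA and each at or under 1.7 RPKM in the 4 mock libraries. On the log2(RPKM + 1) scale the difference of differences was -2.14 for AT5G13900, -1.93 for AT1G56320, -1.86 for ABCG6, -1.71 for AT3G50400, -1.70 for EDA4, -1.67 for TLP-3, -1.44 for GPAT5, -1.32 for LAC5, -1.15 for AT1G52680 and -1.02 for AT5G04380. Genes this low in mock seedlings had little room to fall there. Adding 0.1 in place of 1 before the logarithm left 0 calls, with 355 genes at an unadjusted p under 0.05. The voom fit, which changed the scale as well as the weights, also left 0 calls, with 313 such genes. None of these genes was called in mock seedlings alone.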

How the results depend on the processing

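The 96 calls of mock seedlings depended on the libraries fitted. With only the 4 libraries of both groups, 0 genes passed (0 higher, 0 lower, 0 of the photosynthesis list; 2317 at an unadjusted p under 0.05), as in the range of 0 to 0 when any 1 library was left out for each of these counts. With only the 14 mock libraries the count was 108, with 9 higher, and 59 of the 96 were still called. With a pseudocount of 0.5 it was 73, with 16 higher, and 72 of the 96 were still called. Under the other pseudocount, the filter, both other scalings and voom weights the count was 69 to 107, and 67 to 95 of the main calls remained. All called genes tested kept their direction under every alternative. Their libraries did not overlap, which fixed this in advance for the pseudocounts, the filter and the libraries fitted. LHCB4.1, not called, ranged from -0.6 to 0.04 when 1 library was left out, changing sign without replicate 1 of 24 h. The cause of these shifts was not tested.

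The labels do not say that a replicate number marks a shared batch. Deviations of same-numbered libraries correlated at 0.28 between mock 12 h and 24 h, and at 0.09 to 0.76 between either and the other groups, a hint of shared structure from the data. With a replicate block, limma called 1461 of 18310 genes, 782 higher and 679 lower. Among them were 14 of the 22 photosynthesis genes, as lower, and 8 of the 39 listed clock genes. Far more genes were called in this fit than in the main fit, so these counts cannot be read against the shares given above. The same block gave 1816 for ABA from 12 to 24 h, 1091 for mock from 36 to 60 h and 17 for the difference between treatments. Only the libraries compared gave 0 for each of these 3, with 2450, 1930 and 351 genes at an unadjusted p under 0.05. Leaving out 1 library gave 78 to 657, 25 to 181 and 0 to 25, the 0 without replicate 2 of mock 12 h. The difference between treatments gave 3 with a pseudocount of 0.5, 0 with one of 0.1 and 0 with voom weights (313 at an unadjusted p under 0.05). A lone library was assumed to vary like the other groups. edgeR and DESeq2 were planned and not run, because the deposited unit is RPKM.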
